A study of Mus musculus with 16 samples.

Results

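The synaptonemal complex genes Sycp1, Sycp2, Sycp3, Syce1, Syce2, Syce3 and Tex12 were followed through mouse spermatogenesis in maps of open chromatin. They are 7 of the 21194 genes with an annotated transcription start site (TSS) in the deposited peak lists. The members were listed by name, and each was given every peak that carried its symbol and, as its promoter peak, any peak within 1 kb on either side of its TSS. ATAC-seq uses the Tn5 transposase to insert adapters where DNA is accessible, and a peak is an interval where the inserted ends pile up over background.

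The 16 libraries came from testes of C57BL/6 mice, wild type or Scml2-KO, with 2 libraries in each of 8 groups. SCML2 is a germline protein related to the Polycomb group, and the labels say no more of the knockout allele. The spermatogonial fractions were taken at postnatal day 7 from both genotypes. Thy1+ cells (Thy1) include the stem and progenitor spermatogonia, and c-Kit+ cells (cKit) are differentiating spermatogonia. Pachytene spermatocytes (PS) and round spermatids (RS) were taken from adults of both genotypes. The labels name no treatment and do not say whether animals were pooled. Stage and age therefore cannot be told apart between spermatogonia and the adult cells. About 500000 spermatogonia, 250000 PS or 1000000 RS entered a reaction.

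The synaptonemal complex is the protein ladder that holds homologous chromosomes together along their length during meiotic prophase. SYCP2 and SYCP3 form the lateral elements along each chromosome axis, SYCP1 spans the gap as the transverse filament, and SYCE1, SYCE2, SYCE3 and TEX12 make up the central element in the middle. The complex assembles after the spermatogonial stages, is complete in pachytene spermatocytes, and is gone from round spermatids. Several genes of this kind are kept silent outside the germline by promoter DNA methylation and by repressors that bind E2F and E-box letters.

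The TSS of each gene is given on mm10. Sycp2 starts at position 178407658 of chromosome 2 on the minus strand, and Sycp3 at 88459587 of chromosome 10 on the plus strand. Sycp1 starts at 102936100 of chromosome 3 on the minus strand. The central element genes start at 140787854 of chromosome 7 on the minus strand for Syce1, and at 84872111 and 84872258 of chromosome 8 on the plus strand for Syce2. Syce3 starts at 89410263 and 89410503 of chromosome 15 and Tex12 at 50561268 of chromosome 9, all on the minus strand. The nearest TSS of another gene lay 6130 bp from Tex12 (Bco2) and 6805 bp from Sycp2 (Ppp1r3d), and farther from the others. No promoter window was shared with another gene.

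The 150 bases before the start are given for 6 of the genes. The summit of the highest adult promoter peak lay between -89 and 149 bp of a start in every case. Summits after the start, such as all adult ones of Sycp2 (36 to 111 bp), are outside the stretch printed. Tex12 had a promoter peak in none of the spermatogonial libraries and Sycp2 in nearly all, and the others lay between them. Sequences are from RefSeq on GRCm38.p6 (the assembly also called mm10), 5′ to 3′ in the direction of the gene. Capitals mark the E2F letters GCGGGA on either strand and the E-box CACGTG.
Tex12, chr9:50561269-50561418, minus strand: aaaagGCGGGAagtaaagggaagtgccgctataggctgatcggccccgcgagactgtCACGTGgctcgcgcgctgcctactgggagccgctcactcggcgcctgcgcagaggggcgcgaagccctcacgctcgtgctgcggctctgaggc
Sycp3, chr10:88459437-88459586, plus strand: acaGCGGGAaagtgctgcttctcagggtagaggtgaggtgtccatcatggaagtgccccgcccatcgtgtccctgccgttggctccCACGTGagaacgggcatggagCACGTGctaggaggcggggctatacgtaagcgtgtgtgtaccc
Sycp1, chr3:102936101-102936250, minus strand: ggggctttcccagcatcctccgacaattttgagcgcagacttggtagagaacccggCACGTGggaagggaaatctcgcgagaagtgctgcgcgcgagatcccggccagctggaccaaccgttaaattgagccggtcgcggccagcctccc
Syce2, first start, chr8:84871961-84872110, plus strand: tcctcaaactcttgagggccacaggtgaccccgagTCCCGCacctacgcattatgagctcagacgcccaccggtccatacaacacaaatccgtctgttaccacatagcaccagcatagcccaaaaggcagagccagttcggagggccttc
Sycp2, chr2:178407659-178407808, minus strand: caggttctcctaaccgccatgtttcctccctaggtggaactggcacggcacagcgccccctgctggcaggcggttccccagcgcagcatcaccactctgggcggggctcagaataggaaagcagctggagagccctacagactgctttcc
Syce1, chr7:140787855-140788004, minus strand: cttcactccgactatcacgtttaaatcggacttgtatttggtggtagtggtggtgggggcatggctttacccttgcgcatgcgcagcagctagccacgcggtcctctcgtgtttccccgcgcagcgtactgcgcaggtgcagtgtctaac

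Motifs were counted on both strands of the RefSeq window from 250 bases before to 50 after the start, and all 7 genes were matched. Syce2 and Syce3 have a window for each of their starts, while the background over all genes uses 1 window a gene. CACGTG was in a window of Sycp1, Sycp3, Syce2 and Tex12, and Sycp3 had 2 copies, at -64 and -43 bp from the start. In Syce2 it was in the window of the second start alone, at -88 bp, which is not printed above. CACGTG was in 7.24% of 27025 promoters of this length, and in 11.4% of the 7069 whose gene had a promoter peak in all 8 adult libraries. GCGGGA was in a window of the same 4 genes, against 20.0% of all promoters and 40.8% of the adult-open ones. In Sycp1 it lay at 2, just inside the transcript and so outside the stretch printed above. CNCCTCAG, the letters reported for the meiotic entry factor STRA8, were in windows of Sycp1, Syce2 and Tex12, against 7.97% of all promoters and 9.93% of the adult-open ones. In Syce2 these too were at the second start alone.

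GGGCGG, the Sp1 and KLF letters, which can share bases with the E2F letters, was found at 4 of the 7 genes, against 35.9% of all promoters and 71.0% of the adult-open ones. The NF-Y letters CCAAT were found at Sycp3 and Syce3, with 37.9% of all promoters holding it. TGACGTCA (CRE) was found at 0 of 7, against 1.88% of all promoters. The windows of Sycp2, Syce1 and Syce3 had neither CACGTG nor GCGGGA. The windows held 10 CpG in Sycp2, 14 in Syce1, 15 in Sycp3, 21 in Sycp1 and 26 in Tex12. Those of the pairs of starts held 19 and 33 in Syce2, and 15 and 5 in Syce3. The median over all promoters was 7, with quartiles of 3 and 21. These matches describe the letters in the windows and are not measured binding.

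A peak list holds only what passed the caller's threshold, so a missing peak does not show closed chromatin. The lists held 17813 to 164060 peaks, and replicate 1 had the longer list in every group. The median was 79208 peaks in the 8 spermatogonial libraries and 41724.5 in the 8 adult ones, and 69.5% and 57.9% of all genes had a promoter peak at the median. Markers followed the stage labels in part. Of 7 round spermatid markers, 6 entered the test described below, and 5 had more promoter peaks in adult cells, against 8.46% of all genes tested. Acr, Prm1, Prm2 and Tnp1 had none in spermatogonia. The median share of this list with a promoter peak was 14.3% in Thy1 and in cKit, 85.7% in PS and 100% in RS. The list thus set adult cells apart from spermatogonia but told RS from PS little. Of 7 Sertoli cell markers, 5 entered the test and 3 (Clu, Rhox8 and Cst12) had more in spermatogonia, against 24.7% of all genes tested. The median share of the Sertoli list with a promoter peak was 100% in Thy1, 92.9% in cKit, 21.4% in PS and 50.0% in RS, with ranges of 85.7 to 100%, 42.9 to 100%, 0 to 28.6% and 14.3 to 71.4%. Kit had a promoter peak in all 16 libraries and so does not tell the fractions apart. Of the 7 markers of undifferentiated spermatogonia 3 entered the test and 0 were called. Of the 5 of differentiating spermatogonia 2 entered it and Dmrtb1 was called, with more peaks in adult cells. Of 6 pachytene markers, 5 entered it and 2 were called with more in adult cells, Piwil1 and Tdrd1, and Piwil1 had none in spermatogonia. Scml2 itself had a promoter peak in 6 of 8 wild-type and 3 of 8 Scml2-KO libraries, which does not check the deletion. The part of these differences between fractions in the results below was not tested. In bulk samples, fewer cells with an open promoter and less opening per cell cannot be told apart.

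All 7 promoters had a peak in each of the 8 adult libraries, and in spermatogonia they ran from 0 of 8 libraries (Tex12) to 7 of 8 (Sycp2). Of all genes, 44.3% had a promoter peak in 8 of 8 adult libraries. Counting a promoter as open before meiosis where at least 6 of 8 spermatogonial libraries had a peak, 3 of 7 met the rule, Sycp2 (7), Syce2 (6) and Syce3 (6), against 64.2% of all genes. Without any one Thy1 library, or without either cKit replicate 1, only 1 of the 7 met it, as 6 of the remaining 7 libraries were then needed. Sycp1 and Sycp3 had a peak in 4 spermatogonial libraries each and Syce1 in 3. Counting a gain in PS as a peak in 4 of 4 PS and 0 of 4 cKit libraries, only Tex12 met it among the 7, against 1.05% of all genes. Every member except Sycp2 had a peak in all 4 PS and in 2 or fewer of 4 cKit libraries, a pattern of 3.94% of all genes. The reverse, 4 of 4 cKit and 0 of 4 PS libraries, held for 1.31% of all genes and 0 members. Sycp1, Sycp3, Syce1 and Tex12 combined 8 of 8 adult with 4 or fewer of 8 spermatogonial libraries, as did 0.764% of all genes. Without cKit Scml2-KO replicate 1, Sycp3 had the pattern of a gain in PS too.

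**Figure D1:**
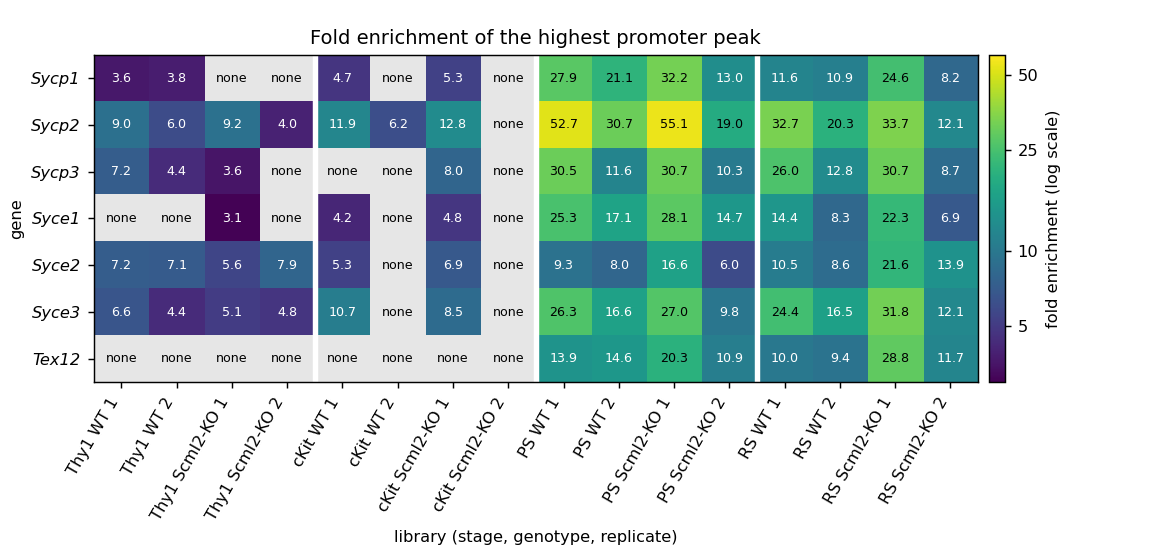
Fold enrichment of the highest promoter peak (colour, log scale, value printed) for each of the 7 genes (rows) in each of the 16 libraries (columns, by stage, genotype and replicate). Grey cells had no promoter peak. The 8 adult columns are filled for every gene, and the Tex12 row is empty in all 8 spermatogonial columns.

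The values behind these counts are fold enrichments over background, a ratio that the authors deposited for each peak. Every library was called on its own, so folds are set side by side between libraries as a description and are not tested. Values are listed throughout in the order wild-type replicate 1, wild-type replicate 2, Scml2-KO replicate 1 and Scml2-KO replicate 2. As a measure within a library, the fold was ranked against the 8274 genes with a promoter peak in all 16 libraries, and the percentile is the share of these genes with a lower fold.

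Sycp2, a lateral element protein, had the most spermatogonial peaks. The folds were 9.04, 6.00, 9.17 and 3.97 in Thy1. In cKit they were 11.9, 6.17 and 12.8, with no peak in Scml2-KO replicate 2, the library with the shortest list. PS gave 52.7, 30.7, 55.1 and 19.0, the highest fold of the 7 genes in each PS library. RS gave 32.7, 20.3, 33.7 and 12.1. The spermatogonial and adult folds overlapped, because cKit Scml2-KO replicate 1 lay just above RS Scml2-KO replicate 2. The percentiles did not overlap, with 0.0121 to 24.6 in spermatogonia and 62.5 to 99.2 in adult cells.

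Sycp3, the other lateral element gene and a widely used cytological marker of meiotic axes, had a peak in 3 Thy1 libraries and 1 cKit library. Folds in Thy1 were 7.24, 4.36 and 3.57, with no peak in Scml2-KO replicate 2. Only Scml2-KO replicate 1 had a peak in cKit, of 7.99. The PS libraries had 30.5, 11.6, 30.7 and 10.3, and the RS libraries 26.0, 12.8, 30.7 and 8.66. Both replicates 1 were high and both replicates 2 low in either adult stage. All 8 adult folds were nonetheless above the highest spermatogonial one.

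Sycp1 encodes the transverse filament. Thy1 had 3.62 and 3.82 in the wild type and none in Scml2-KO. In cKit the replicates 1 had 4.75 and 5.33 and the replicates 2 had none. The adult folds were 27.9, 21.1, 32.2 and 13.0 in PS and 11.6, 10.9, 24.6 and 8.23 in RS. No adult value overlapped a spermatogonial one. In 2 of the 4 spermatogonial libraries the highest peak was not at the start but 443 bp (Thy1 wild type replicate 2) and 490 bp (cKit Scml2-KO replicate 1) downstream of it. The adult summits lay from -40 to 133 bp.

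Among the central element genes, Syce1, which binds SYCE3, had the fewest spermatogonial peaks after Tex12. A single Thy1 library, Scml2-KO replicate 1, had a peak, with a fold of 3.06. The cKit replicates 1 had 4.15 in the wild type and 4.79 in Scml2-KO, and the replicates 2 none. All 3 spermatogonial peaks were thus in replicate 1, the longer lists. Folds reached 25.3, 17.1, 28.1 and 14.7 in PS and 14.4, 8.26, 22.3 and 6.93 in RS, all above the spermatogonial values.

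Syce2, whose protein assembles with TEX12 into the fibres of the central element, showed the least separation between stages. In Thy1 it had a peak in all 4 libraries, of 7.24, 7.09, 5.60 and 7.95. In cKit the replicates 1 had 5.34 and 6.93 and the replicates 2 had none. PS values of 9.29, 8.04, 16.6 and 5.98 overlapped those of Thy1, as the last one lay below 3 of the 4 Thy1 values. RS had 10.5, 8.64, 21.6 and 13.9. It was the single member whose adult and spermatogonial percentiles overlapped, with 4.62 in PS Scml2-KO replicate 2 and 11.4 in Thy1 Scml2-KO replicate 2.

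Syce3, which links the transverse filament to the rest of the central element, also had a peak in all 4 Thy1 libraries. These had folds of 6.63, 4.36, 5.09 and 4.77. In cKit the replicates 1 stood at 10.7 and 8.52, and the replicates 2 had no peak. The adult folds were 26.3, 16.6, 27.0 and 9.78 in PS and 24.4, 16.5, 31.8 and 12.1 in RS. Only PS Scml2-KO replicate 2 was not above the highest cKit value.

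Tex12, the partner of SYCE2, had no promoter peak in any spermatogonial library, including the Thy1 wild-type list of 135892 peaks. PS had 13.9, 14.6, 20.3 and 10.9, and RS 9.97, 9.39, 28.8 and 11.7. RS Scml2-KO replicate 1, with the longest list of all, stood apart from the other 3 RS libraries. The adult peaks were 528 to 1301 bp long, with summits from -89 to -28 bp of the start. In the plain pattern of libraries with a peak, 8 of 8 adult and 0 of 8 spermatogonial, Tex12 was 1 of 57 genes (0.269% of all).

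In 4 of 7 genes (Sycp1, Sycp3, Syce1 and Tex12) the lowest adult fold was above the highest spermatogonial one, a missing peak counting as lowest. This held for 1.38% of the 9392 genes with a peak in all adult libraries. In percentiles it held for 6 of 7, all but Syce2, against 9.14%. Most of the 9392 genes (8274) had a peak in all 16 libraries, which no member had, so both shares come from an unlike set. Tex12 met both by having no spermatogonial peak. The 4 genes with separate folds are also those with a peak in 4 or fewer spermatogonial libraries, so this is not separate evidence. The median spermatogonial percentile, over libraries with a peak, was 0 for Syce1, 0.0242 for Sycp1, 0.0786 for Sycp3, 0.212 for Syce3, 0.429 for Syce2 and 2.21 for Sycp2. Where these promoters had a peak before meiosis, its median rank was thus near the bottom of the common set. Every gene of that set had a peak in each spermatogonial library, which no member had, so a low rank there is in part built in. The medians in PS were 97.3 for Sycp2, 75.2 for Sycp1, 65.7 for Syce1, 62.2 for Syce3, 53.9 for Sycp3, 38.9 for Tex12 and 10.9 for Syce2.

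**Figure D2:**
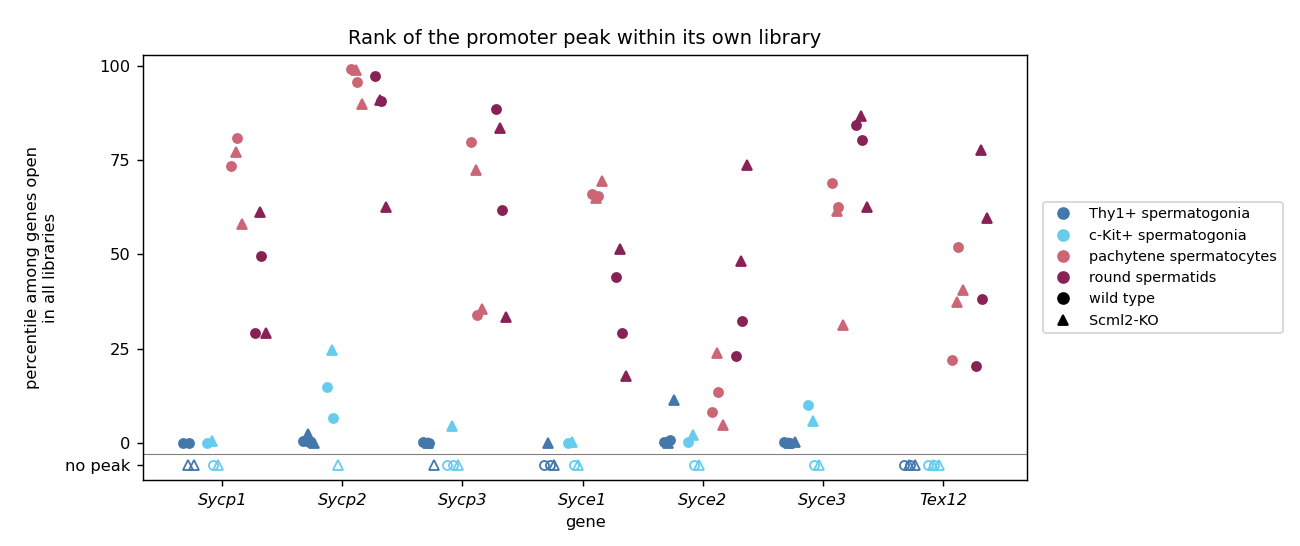
Percentile of the promoter fold within its own library, among 8274 genes with a promoter peak in all 16 libraries (vertical axis), for each gene (horizontal axis). Points are libraries, coloured by stage, with circles for wild type and triangles for Scml2-KO, and open points under the line had no peak. Adult points lie above all spermatogonial points in every gene but Syce2.

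Libraries with a promoter peak were compared between the 8 spermatogonial and the 8 adult libraries with a two-sided Fisher's exact test per gene, adjusted by Benjamini-Hochberg at 0.05. Only genes open in 5 to 11 of the 16 libraries were tested, since the others can reach no low p, and 2 of the 7 members passed this filter. As every member had a peak in all 8 adult libraries, it could pass only with few spermatogonial peaks. Passing was thus tied to a difference towards adult cells, also with the thresholds and equal list lengths below. Tex12 was called higher in adult cells, with 8 of 8 against 0 of 8 libraries and an adjusted p of 0.00357 in Fisher's exact test. Syce1, with 8 of 8 against 3 of 8, was not called (exact p = 0.0256, adjusted p = 0.0547). Without any one of the 3 spermatogonial libraries that had the Syce1 peak (Thy1 Scml2-KO replicate 1, cKit wild type replicate 1 or cKit Scml2-KO replicate 1) it was called, with adjusted p of 0.0224, 0.0222 and 0.0221 in the exact test. Each such removal takes a peak from the lower group, so a lower p was built in. Without any one adult library Syce1 was not called (adjusted p of 0.0509 to 0.0554, exact test). Without any other spermatogonial library it was open in too many libraries to be tested. Over all genes tested, 330 of 3903 (8.46%) were called higher in adult cells and 963 (24.7%) higher in spermatogonia.

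The other 5 were open in too many libraries for that test. Their unadjusted exact p was 0.0769 for Sycp1 and Sycp3 (8 against 4 libraries), 0.467 for Syce2 and Syce3 (8 against 6) and 1 for Sycp2 (8 against 7). These values do not show that the groups are alike. With only peaks of at least 5-fold enrichment, 4 of 7 were called (Sycp1, Sycp3, Syce1 and Tex12), against 6.32% of the genes then tested, and Syce1 and Tex12 gained a peak in PS, against 1.19% of all genes. With a −log10 q of at least 5 the same 4 were called, against 5.85%, and the same 2 gained a peak in PS, against 1.11%. Sycp2 and Syce2 still met the rule for open before meiosis at the fold threshold and Sycp2 alone at the −log10 q threshold. With every list reduced to its 17813 strongest peaks by −log10 q, the length of the shortest list, all 7 were called higher in adult cells, against 22.7% of the genes then tested. The adjusted p in the exact test was 0.00133 for Sycp1, Sycp3, Syce1 and Tex12, 0.00549 for Syce2 and Syce3, and 0.0434 for Sycp2. The peaks that remained in spermatogonia were those of Sycp2 in 3 cKit libraries, Syce2 in 1 Thy1 library and Syce3 in 1 cKit library. At this length 0 of 7 met the rule for open before meiosis, and 5 of 7 had a peak in 4 of 4 PS and 0 of 4 cKit libraries, against 3.02% of all genes. The share of all genes open before meiosis was not computed at this length or at either threshold. Whether the members fell more than other genes is thus not known.

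Between cKit and PS, 4 against 4 libraries allow no Fisher's exact p under 0.0286, and Tex12 had that value (adjusted p = 0.0658). The other exact p values were 0.143 for Sycp3, 0.429 for Sycp1, Syce1, Syce2 and Syce3, and 1 for Sycp2. Of 1153 genes tested at this step 0 were called by the exact test after adjustment, and 501 (43.5%) had an unadjusted p under 0.05. With lists of equal length, Sycp1, Sycp3, Syce1, Syce2 and Tex12 were called at this step (0 of 4 cKit and 4 of 4 PS libraries each, adjusted p = 0.0384 in the exact test). All 7 members had a peak in 4 of 4 PS libraries, and only genes open in 4 of the 8 libraries were tested. A member could thus enter only with 0 of 4 cKit libraries and the lowest p. That 5 of the 5 members tested were called was therefore fixed by the filter and says nothing more about them. Of the 1476 genes then tested, all open in 4 of the 8 libraries, 74.4% were called, in either direction. Sycp2 and Syce3 were open in too many libraries to be tested at that length. In the cKit stage the replicates differed widely. The replicates 1 had a promoter peak at 5 (wild type) and 6 (Scml2-KO) of the 7 genes, and the replicates 2 at 1 and 0. Their lists held 83378 and 91480 peaks against 32356 and 17813. Thy1 libraries had 5, 5, 5 and 3 of the 7. Syce2 and Syce3 had 4 of 4 Thy1 and 2 of 4 cKit libraries, and Sycp3 3 and 1, while Syce1 had 1 and 2.

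In PS and in RS all 7 promoters had a peak in 4 of 4 libraries. Syce1 was the single member whose PS percentiles (64.9 to 69.4) lay above all its RS percentiles (17.6 to 51.5). This order was found in 11.1% of the genes with a peak in all adult libraries, and the reverse in 10.4% and in 0 members. The median percentile in RS was 90.8 for Sycp2, 82.3 for Syce3, 72.6 for Sycp3, 48.9 for Tex12, 40.2 for Syce2, 39.3 for Sycp1 and 36.5 for Syce1. Sycp2 thus had the highest median in both adult stages, with PS and RS libraries that overlapped.

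The width of the peaks differed as well. The highest promoter peak of Sycp1 was 110 to 156 bp long in spermatogonia and 784 to 1543 bp in adult cells. In the same order, the lengths for Sycp3 were 148 to 444 and 631 to 1511 bp. Those of Syce1 were 162 to 571 and 590 to 1181 bp, and those of Syce3 140 to 442 and 702 to 1131 bp. For Sycp2 they were 166 to 1255 and 817 to 1895 bp, and for Syce2 119 to 1081 and 722 to 1478 bp. The share of all genes whose lengths did not overlap was not computed. These ranges therefore do not show whether the difference is particular to these genes. Length and fold come from the same pileup and are not separate evidence. The adult summits of Sycp2 lay 36 to 111 bp after the start and those of Syce3 -55 to -2 bp from the nearer start, a narrow spread over 8 libraries. In Thy1 Scml2-KO replicate 2 the highest Sycp2 peak was 599 bp downstream of the start.

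**Figure D3:**
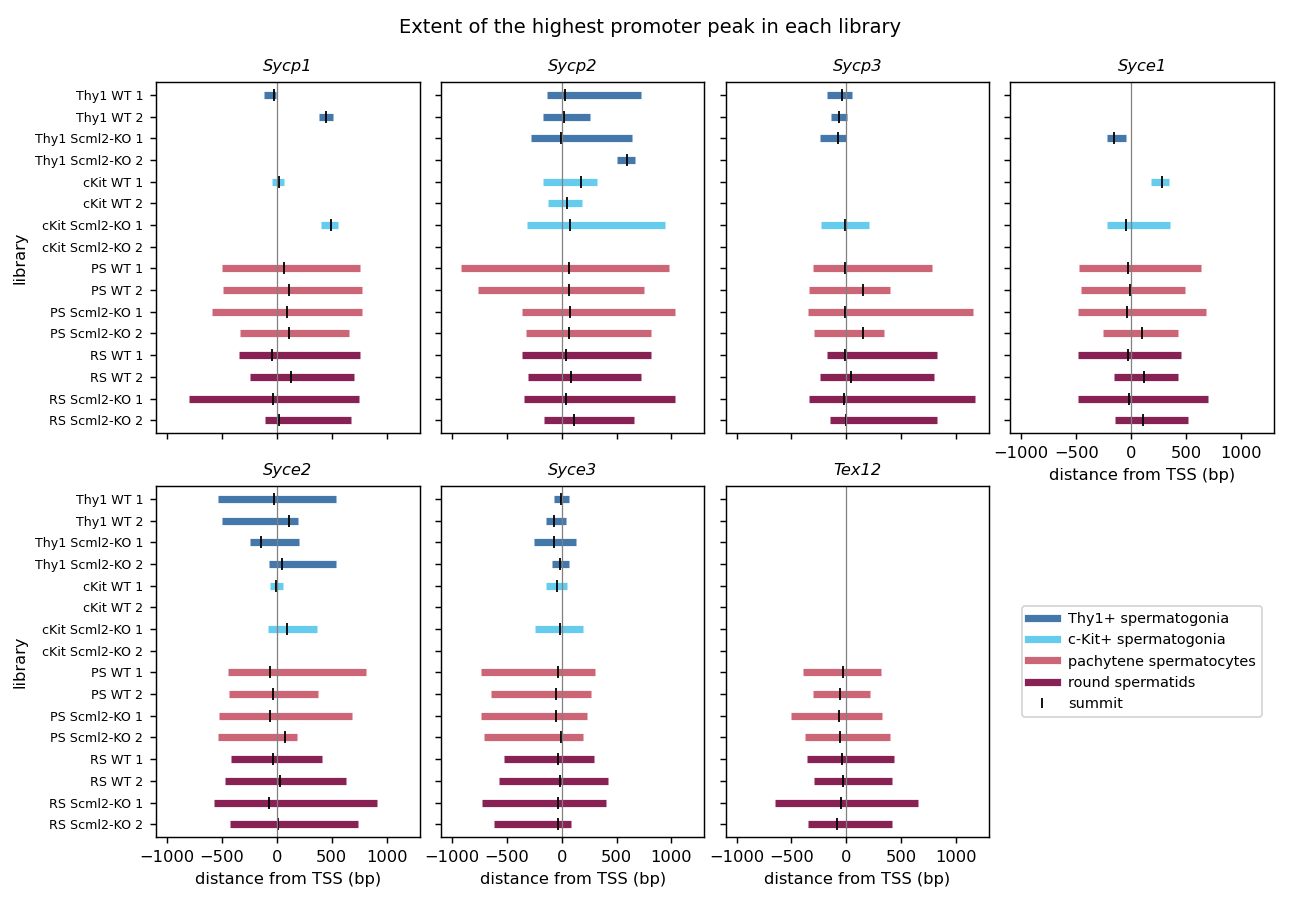
Extent (bars) and summit (ticks) of the highest promoter peak of each gene in each library, in bp from the TSS on the strand of the gene (horizontal axis), coloured by stage. The Sycp1 bars span 110 to 156 bp in spermatogonia and 784 to 1543 bp in adult cells.

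Genotype was tested over all stages with a two-sided exact conditional test that permutes wild type and Scml2-KO within each stage. Given how many libraries had their peak, 0 of the 7 could reach p = 0.05 in this exact test, so a difference was not detectable with these libraries. Wild-type and Scml2-KO libraries with a peak numbered 7 and 5 for Sycp1 (exact p = 0.5), 8 and 7 for Sycp2, 5 and 6 for Syce1, and 4 and 4 for Tex12. Sycp3 had 6 and 6, and Syce2 and Syce3 7 and 7 each. All exact p but that of Sycp1 were 1. Over the 811 genes that could reach it, 0 were called after adjustment by this exact test and 14 (1.73%) had an unadjusted p under 0.05.

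For a single stage, with 2 libraries a genotype, the smallest two-sided exact p is 0.333, so ranks are given with no test. In RS both Scml2-KO libraries had higher percentiles than both wild-type ones for Syce2 (48.2 and 73.6 against 22.9 and 32.2) and for Tex12 (77.8 and 59.7 against 20.4 and 38.1). This was 2 of 7 members, against 18.6% of all genes with a peak in 4 of 4 RS libraries. In PS both wild-type libraries were above both Scml2-KO ones for Syce3 (68.9 and 62.7 against 61.6 and 31.3), 1 of 7 against 13.2%. Of the 3 members with a peak in all 4 Thy1 libraries 0 separated by genotype. Both counts are close to what the background shares would give among 7 genes.

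In all, the 7 symbols were carried by 225 peaks in 80 regions, where peaks of any library that overlap by at least 1 bp form a region. Of these 10 were promoter regions and 70 lay elsewhere, and 48 of the 70 were found in a single library. The number of other peaks varied with library and stage. PS replicates 1 had 22 (wild type) and 38 (Scml2-KO) and PS replicates 2 had 0, while RS Scml2-KO replicate 1 had 26 and the other RS libraries 1 to 4. Thy1 libraries had 1 to 8 and cKit libraries 0 to 2. Sycp2 had 30 such regions, of which 28 were found in adult cells alone and 7 in both PS replicates 1 and no other library. Syce1 had 15, of which 13 were in adult cells alone and 3 in both PS replicates 1 alone. Tex12 had only its promoter region.

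Only 4 of the 70 regions were found in 4 or more libraries. An intronic region of Sycp1, chr3:102865546-102865987, 70334 bp downstream of the start, had a peak in 2 PS and 4 RS libraries and in 0 spermatogonial ones, with folds of 3.90 to 15.5. A region upstream of Sycp3, chr10:88457739-88458532, centred at -1452 bp, had a peak in 4 Thy1, 2 cKit, 1 PS and 1 RS libraries, with folds of 3.62 to 8.44. It is just outside the promoter window. With a window of 2 kb Sycp3 counted as open in 6 of 8 spermatogonial libraries instead of 4, and so met the rule for open before meiosis. A region farther upstream of Sycp3, chr10:88456638-88457154, had a peak in 2 Thy1, 2 PS and 2 RS libraries. The fourth, chr7:140799759-140800798, was upstream of Syce1, centred at -12424 bp, and had a peak in 1 Thy1, 2 PS and 1 RS library.

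Genes of like pattern were sought for members open in 5 to 11 libraries, by the number of libraries in the same state and then by median fold. For Tex12, 56 genes had the same state in 16 of 16 libraries. The first 5 were 1700054M17Rik (median fold 22.8), 1700065O20Rik (17.5), Tmprss12 (16.8), Scp2d1 (16.5) and Spo11. For Syce1, 4 genes had the same state in 16 of 16, namely Meioc (listed as Gm1564), 1700006H21Rik, Dpep3 and 4930447J18Rik. D1Pas1 came next with 15 of 16. All genes were read from the same libraries and lists, so likeness of this kind is a description.

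Other genes of meiosis were grouped by role. Among 3 matched synapsis genes, 0 were called by Fisher's exact test. Six6os1 (listed as 4930447C04Rik), a central element gene, had a peak in 6 of 8 spermatogonial and 8 of 8 adult libraries with adult folds all above the spermatogonial ones. Fkbp6, needed for synapsis in males, had 2 of 8 and 7 of 8 (adjusted p = 0.0722, exact test), and Trip13, the ATPase that strips HORMADs from synapsed axes, had 8 and 8. Among 7 axis and cohesin genes, 1 was called higher in adult cells, Hormad1, an axis protein (0 of 8 and 8 of 8, adjusted p = 0.00357 in the exact test). Rec8 and Stag3, meiotic cohesin subunits, had a peak in all 16, Smc1b in 4 and 8, and Hormad2 in 7 and 7. Iho1 and Rad21l had none in any library.

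Of 8 matched crossover and strand exchange genes, 1 was called higher in adult cells, Spo11, which makes the meiotic breaks (0 of 8 and 8 of 8, adjusted p = 0.00357, exact test). Dmc1, the meiotic recombinase, had 5 of 8 and 8 of 8 with separate folds. In this list 5 of the 8 genes had a peak in at least 6 spermatogonial libraries, close to the 64.2% of all genes. Of 5 telomere attachment genes, 1 was called higher in adult cells, Majin, which tethers telomeres to the nuclear envelope (0 of 8 and 6 of 8, adjusted p = 0.0247, exact test). Of 5 matched meiotic entry genes 0 were called. Stra8, the transcription factor of meiotic entry, had 5 and 5, and Meioc 3 and 8 (adjusted p = 0.0547, exact test) with separate folds, while Ythdc2, Dazl and Mybl1 had all 16. The 4 genes of PRC1.6, a repressor complex of germline genes, E2f6, Mga, L3mbtl2 and Pcgf6, had 8, 8, 7 and 6 of 8 in spermatogonia and 8 of 8 in adult cells. Only 1 gene entered the test in each of the synapsis, axis, crossover and telomere lists. In the meiotic entry list 2 entered it and in that of PRC1.6 0. The counts above are of listed genes, while the shares that follow are of genes tested. Of all lists, 0 genes were called higher in spermatogonia. Over all genes tested, 8.46% were called higher in adult cells and 24.7% higher in spermatogonia. Hormad1 and Spo11 thus had the same pattern as Tex12, a peak in every adult and no spermatogonial library.

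**Figure D4:**
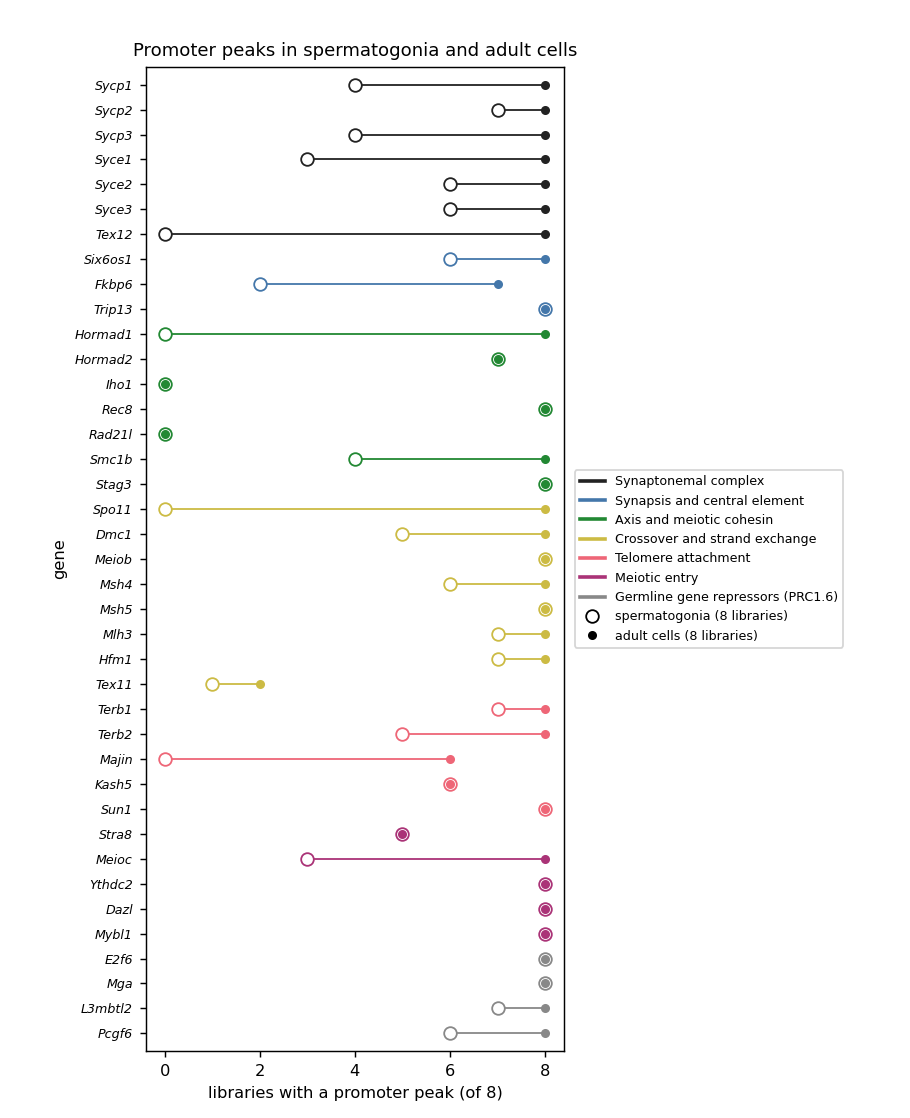
Number of libraries with a promoter peak (horizontal axis, of 8) in spermatogonia (open circles) and in adult cells (filled circles) for the 7 synaptonemal complex genes and other genes of meiosis, coloured by list. Tex12, Hormad1 and Spo11 span the whole axis from 0 to 8, and many partners, such as Rec8, Stag3 and Dazl, sit at 8 in both.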

How the data were processed

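The deposited data are 16 peak lists, one for each library without pooling of replicates. The submitters' processing notes name Bowtie 1.1.1, MACS2 2.1.0.20140616 and mm10, while the threshold of the caller is not given in the sources used here. Per the file headers, each line gives a summit with its pileup (signal), −log10 p and −log10 q, length in bp and fold enrichment, a ratio, all as the authors deposited them. Lines with the same interval were joined, giving 1111092 peaks from 1431525 lines, and 576 mitochondrial lines were left out. No 2 lists were identical. The number of reads is unknown here, so no counting interval is given. Start sites came from the authors' annotation, with 870 genes added by position from RefSeq.

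A gene was open where at least 1 bp of a peak lay within 1 kb of a TSS. Fisher's exact tests, exact conditional tests and Benjamini-Hochberg adjustment (threshold 0.05) used scipy 1.17.1, numpy 2.4.6 and pandas 2.3.3, and were checked on simulated data. Nothing in the labels places replicates in separate animals, and p-values may therefore reflect only technical spread among libraries. The rule for named genes took the 7 members, every called or separated gene of the role lists, and up to 5 genes of like pattern. Other role-list genes are named as well, chosen after their values were seen. Sycp2l, Shoc1, Rnf212 and Meiosin were not matched. The members and lists were chosen with earlier results of these data known.

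Alternatives were promoter windows of 500 bp and 2 kb, −log10 q or fold of at least 5, equal list lengths, at least 50% of the peak inside the window, each genotype alone, no filter, a replicate block and leaving out each library. The same settings for the counts of separate folds and separate percentiles were chosen after the data were seen. Replicate numbers are those of the sample titles, and the names of the deposited files number the replicates differently.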

Additional observations from a re-analysis of the deposited data

Results flagged for a closer look

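Tex12 in round spermatids was the single set of fold values with a sample far from the others. Its promoter fold was 28.8 in Scml2-KO replicate 1 and 11.7 in the next library, a gap of 0.881 of the range over 4 libraries. That library has the longest list, 164060 peaks, and the part of this in the fold was not tested. In all 29 sets of a gene and stage or class were examined, and chance marks about 1 in 20.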

How the results depend on the processing

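Tex12 was called higher in adult cells under all alternatives that kept both genotypes (adjusted p of 0.00133 to 0.00937, exact tests) and not in the wild type alone (0.111) or Scml2-KO alone (0.254), where 4 against 4 libraries were tested. All 7 genes kept a peak in every adult library under every alternative. The number of members called was 1, and became 4 with −log10 q of at least 5 or with a fold of at least 5 (Sycp1, Sycp3, Syce1 and Tex12), 7 with equal list lengths and 0 in either genotype alone. It was 1 to 2 on leaving out a library. Members open before meiosis fell from 3 to 1 with −log10 q of at least 5 and to 0 with equal lengths, and ranged from 1 to 3 on leaving out a library (1 without any Thy1 library or either cKit replicate 1), since 6 of the remaining 7 were then needed. Members gaining a peak in PS numbered 1, then 2 with either threshold of 5, 5 with equal lengths, 2 in the wild type alone, and 1 to 2 on leaving out a library (2 without cKit Scml2-KO replicate 1). Members with separate folds numbered 4, then 7 in the wild type alone (background 4.10%), and 4 to 6 on leaving out a library. For separate percentiles the range was 6 to 7. The share of all genes open before meiosis was computed for the main setting alone.

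Over all genes, those higher in adult cells were 330, then 810 with equal lengths, 0 in either genotype alone, 163 without the filter, and 332 to 498 on leaving out a library (498 without cKit wild type replicate 2 or cKit Scml2-KO replicate 2). Those higher in spermatogonia were 963, then 1300 with equal lengths, 0 in either genotype alone and 458 without the filter. On leaving out a library they were 963 to 1736 (1736 without cKit Scml2-KO replicate 2). Genes in all PS and no cKit libraries were 223, then 640 with equal lengths, 524 in the wild type and 354 in Scml2-KO alone, and 223 to 360 (360 without PS Scml2-KO replicate 2). The reverse was 278, then 458, 1088 and 561, and 278 to 657 (657 without cKit Scml2-KO replicate 2). Calls at that step were 0, then 1098 with equal lengths, and 0 on leaving out any library. Genotype calls were 0 under every alternative. Apart from numbers of libraries and list lengths, the cause of these shifts was not tested.

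With the replicate number as a block, 431 genes were higher in adult cells and 1115 in spermatogonia, and 2 members were called, Tex12 (adjusted p = 0.00937) and Syce1 (0.0361, exact conditional test). The labels do not tie equal numbers to one animal. Deviations of replicate 1 from the group means correlated at -0.00319 to 0.424 over 28 pairs of groups, with a median of 0.128. As the correlation was not above zero in every pair and the names of the deposited files number the replicates differently, the numbers were not taken to pair the samples. Folds rest on single calls per library, and depth is unknown.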
